A study of Homo sapiens with 12 samples.

Results

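THP-1 lines carrying CRISPR constructs against p21 were compared with THP-1 lines carrying non-targeting constructs, over both viruses that the lines had received. THP-1 is a human monocytic leukaemia line, and p21 is the protein of CDKN1A. The comparison used 8 of the 12 bead arrays of the study, chosen by their labels: 4 arrays of the p21 lines p21-2 and p21-3, and 4 of the non-targeting (NT) lines NT-2 and NT-3. Each line gave an array after an empty control lentivirus (ECV) and an array after a lentivirus with KLF4, a transcription factor of the zinc finger kind. The 4 groups were thus NT with ECV, p21 with ECV, NT with KLF4 virus and p21 with KLF4 virus, with 2 arrays in each. RNA was taken 5 days after infection, from cells that were 17 days past CRISPR selection. All arrays, controls included, came from CRISPR-treated and virus-infected cells. The other 4 arrays, from the miR-150 CRISPR lines numbered 3 and 4 with the same viruses, lent their spread to the model and served as a second set of values. Nothing states whether a line is a clone or a pool, or that lines came from separate cultures. The p-values therefore measure the spread between these samples, which may be technical.

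p21 binds cyclin-dependent kinases and PCNA, and it holds cells in G1 when it accumulates. Its gene is a well-known target of p53, and also responds to other factors, KLF4 among them. In monocytic cells p21 is known as a gene that rises as they stop dividing and differentiate. THP-1 is known for lacking functional p53.

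All values are the deposited log2 expression levels, for 12137 genes with signal above background. A gene was called when its Benjamini-Hochberg adjusted p over these genes was under 0.05 in limma, with the CRISPR line as a random block. Of 9 tested monocytic markers, LYZ (14.4 in NT and 14.3 in p21 lines), ITGB2 (13.9 and 13.8), FCER1G (13.1 and 13.0), CEBPA (12.03 in both) and MEIS1 (10.2 and 10.3) were bright. MPO lay near background at 7.25 and 7.26, and FLT3 was not tested, at 7.06 and 7.09. Of markers of other cells, CD3E, CD3D, MS4A1, CD79A, HBB, HBA1, ALAS2, CPA3, EPCAM, KRT19, CDH1, COL1A1, COL1A2 and DCN lay between 6.93 and 7.37, near the background level of 7.26. Of the wider lists of such markers, 4 of 13 tested members had a mean level above 8 over all arrays: NKG7, a granule protein of cytotoxic cells, at 13.55, the T and NK cell receptor CD2 at 8.70 and the mast cell tryptases TPSAB1 and TPSB2 at 10.89 and 10.06. TPSAB1 was lower in p21 lines without overlap and did not pass (-0.34, adjusted p = 0.422, limma), and its part in the results was not tested. Of these 13 and the 9 monocytic markers 0 were called. The array NT-2 with KLF4 virus stood apart: its root mean square distance from the median of the other 5 arrays with its virus was 0.247 over genes, against 0.105 to 0.13 for the other 11 arrays. In bulk RNA, fewer cells of a type and less RNA per cell cannot be told apart.

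The KLF4 probes did not bear out the label of the KLF4 virus. Of 6 lines, KLF4 was higher with KLF4 virus in 2 by one probe, which lay between 7.62 and 7.97 with ECV and between 7.56 and 7.87 with KLF4 virus. By the other probe it was higher in 0 of 6 lines, with 7.70 to 7.95 and 7.43 to 7.69. The probes were not placed against the KLF4 insert, so whether they can detect it was not tested. Arrays are called here by the virus on their label.

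Promoters of 3 genes are shown here because the results turn on them: CDKN1A is the targeted gene, CCDC167 had the largest fall among the genes that follow it on chromosome 6, and AAK1 had the smallest p outside them. The sequences are RefSeq's for GRCh38.p14, from 250 bases before to 50 after the annotated start, on the strand of the gene. Capitals mark GGGCGG, the core of the GC box bound by SP1 and KLF factors, or CCGCCC, its other strand. CDKN1A lies at chr6:36678464-36678763 on the plus strand, CCDC167 at chr6:37499844-37500143 on the minus strand and AAK1 at chr2:69643690-69643989 on the minus strand.
CDKN1A: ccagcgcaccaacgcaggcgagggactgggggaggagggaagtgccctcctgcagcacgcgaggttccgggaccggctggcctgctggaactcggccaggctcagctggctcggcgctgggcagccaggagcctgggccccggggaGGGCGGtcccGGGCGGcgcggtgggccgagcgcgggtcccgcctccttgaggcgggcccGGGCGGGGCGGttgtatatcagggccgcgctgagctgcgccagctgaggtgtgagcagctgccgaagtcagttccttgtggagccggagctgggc
CCDC167: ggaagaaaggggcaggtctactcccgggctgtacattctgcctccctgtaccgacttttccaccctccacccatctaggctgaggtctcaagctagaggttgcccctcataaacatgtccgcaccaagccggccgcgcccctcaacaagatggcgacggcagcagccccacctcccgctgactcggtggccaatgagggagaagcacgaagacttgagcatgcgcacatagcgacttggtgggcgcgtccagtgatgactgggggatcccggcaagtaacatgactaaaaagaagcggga
AAK1: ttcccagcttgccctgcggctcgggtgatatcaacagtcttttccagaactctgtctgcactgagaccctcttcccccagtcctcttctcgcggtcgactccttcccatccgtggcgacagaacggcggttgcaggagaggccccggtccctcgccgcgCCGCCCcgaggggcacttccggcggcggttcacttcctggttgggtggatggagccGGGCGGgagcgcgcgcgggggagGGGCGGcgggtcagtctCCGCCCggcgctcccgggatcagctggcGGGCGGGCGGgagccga
With overlapping matches counted separately, GGGCGG occurred 4 times on either strand in the CDKN1A window, 0 times in that of CCDC167 and 6 times in that of AAK1. It was present in 44.6% of 27305 promoters of this length and in 66.5% of the 9680 that belong to tested genes. Among the genes called in the comparison it was in 7 of 10 promoters on the stretch of chromosome 6 described below and in 8 of 10 elsewhere, so the called genes with an entry did not stand out by this motif.

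CDKN1A mRNA was read first, as that of the targeted gene. With ECV its log2 level was 9.22 in NT-2 and 9.16 in NT-3, against 9.11 in p21-2 and 8.88 in p21-3. With KLF4 virus it was 12.48 in NT-2 and 11.66 in NT-3, against 11.08 in p21-2 and 11.37 in p21-3. Both p21 arrays thus lay below both NT arrays within each virus, and the levels with KLF4 virus lay above all of those with ECV in every line. The miR-150 lines had 9.24 and 9.37 with ECV and 11.73 and 12.11 with KLF4 virus, also above the p21 arrays. Averaged over the viruses, p21 minus NT was -0.52 (SE 0.145, 95% interval -0.83 to -0.21, adjusted p = 0.283, limma), so CDKN1A was not called. The difference was -0.19 with ECV and -0.84 with KLF4 virus, and its dependence on the virus did not pass (adjusted p = 0.787, limma). It was called in 2 of the 16 fits that left out an array or a line: -0.72 without NT-3 with KLF4 virus (adjusted p = 2.36e-05) and -0.74 without the line NT-3 (adjusted p = 9.52e-05). A second CDKN1A probe stayed at background, with a mean of 7.04. CRISPR editing need not lower the mRNA of its target, so the mRNA is no check of the edit, and the probe was not placed against the edited site here.

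Over all chromosomes 23 genes (0.19% of 12137) were called for the mean of both viruses, all of them lower in p21 lines and 0 higher (limma). At an unadjusted p under 0.05 there were 473 lower (3.9%) and 636 higher genes (5.24%). Of the 23, 11 lay on the stretch (11.6% of its 95 tested genes) of chromosome 6 that follows CDKN1A and 12 elsewhere, and in all 23 both p21 arrays lay below both NT and both miR-150 arrays within each virus. Over all genes, 3.55% had every p21 array below every NT array within each virus, and 1.15% had it below the miR-150 arrays as well. Just inside the threshold were GRN and SLX4IP (both adjusted p = 0.0486) and PPIL1 (0.0453). Just outside were MTCH1 (-0.35, adjusted p = 0.0548), CCNY (0.40, 0.063) and TGFBRAP1 (-0.45, 0.0669). The count depended on the block: with the mean of each line as 1 value it was 9, with CCDC167, C6orf89, CMTR1, NFKBIE, MMUT and RNF8 in the stretch and AAK1, GRB2 and SAXO1 outside. The other 14 did not pass there, with adjusted p from 0.0669 (ZFAND3) to 0.216 (SLX4IP). The count also depended on single arrays. Without NT-3 with KLF4 virus it was 964, and without NT-2 with KLF4 virus it was 50. Without an NT array with ECV it was 7 (NT-2) or 8 (NT-3), without a miR-150 array 14 for each, and without a p21 array 10 (p21-2, ECV), 9 (p21-3, ECV), 3 (p21-2, KLF4 virus) or 4 (p21-3, KLF4 virus). Without either p21 line it was 0, and from the p21 and NT arrays alone it was 1.

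**Figure D1:**
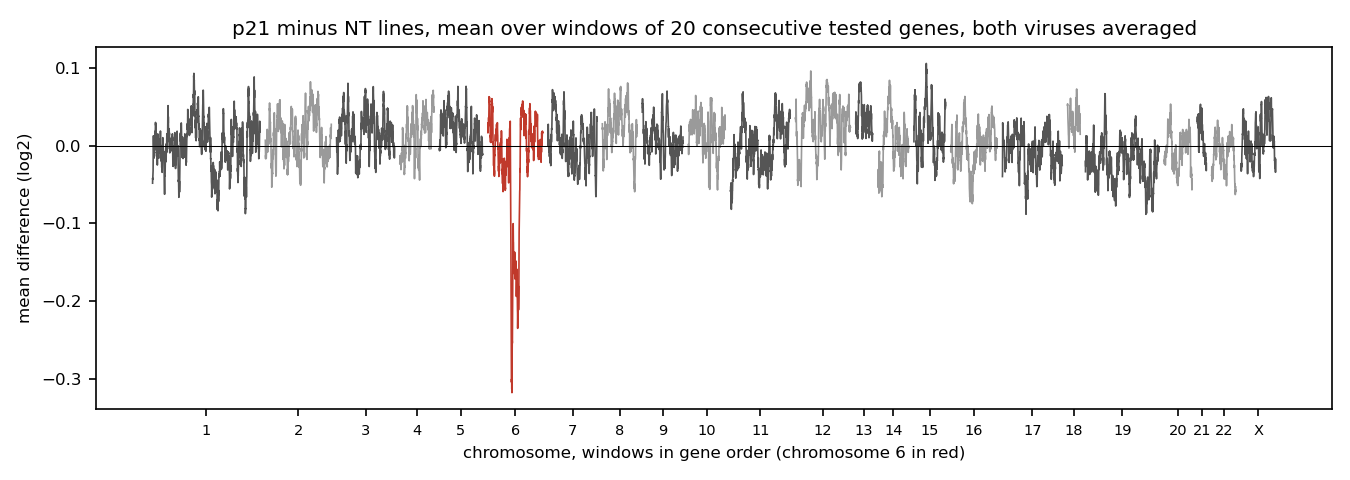
Mean p21 minus NT difference (log2, y axis; both viruses averaged) over windows of 20 consecutive tested genes, with the chromosomes side by side on the x axis and chromosome 6 in red. Windows that hold no gene of the stretch lie between -0.09 and 0.11, and the red line drops to -0.32 just after CDKN1A.

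The genes that follow CDKN1A on chromosome 6 were lower in p21 lines as a block. From PPIL1, the next tested gene, to CENPQ, 95 tested genes had a median difference of -0.19, against 0.01 over all genes, 0.01 for the 279 genes of chromosome 6 before CDKN1A and 0.02 for the 279 after CENPQ. The end at CENPQ was placed from these same differences, as the least-squares step back to the level of all genes, so the values of the stretch are a description and were not tested as a group. Of its 127 genes with a named probe, 32 had no signal above background and were not tested. Among the tested ones, 82 (86.3%) were lower in p21 lines, against 46% of all genes. In 43 (45.3%) every p21 array lay below every NT array within each virus, against 3.55% over all genes.

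**Figure D2:**
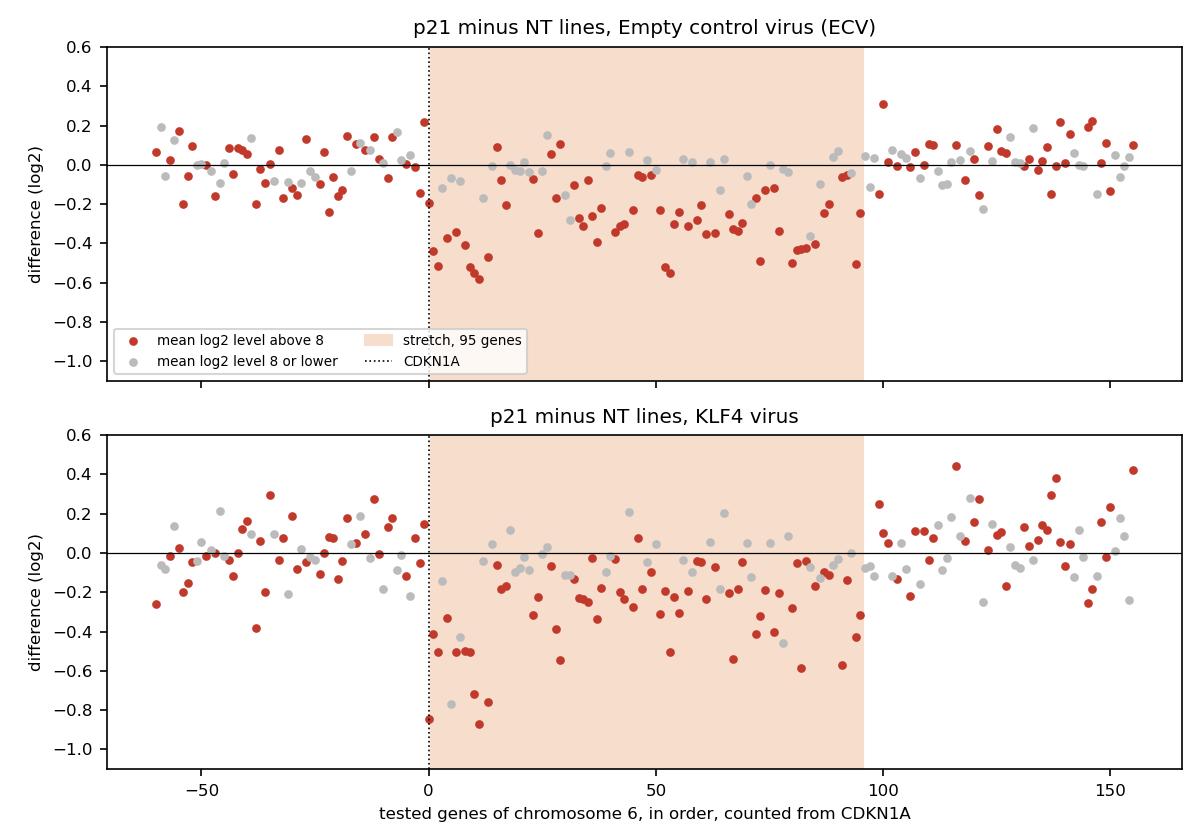
Differences between p21 and NT lines (log2, y axis) for tested genes of chromosome 6 in their order, counted from CDKN1A at 0 (x axis), with ECV above and KLF4 virus below. Red points are genes with a mean log2 level above 8, grey points are dimmer genes, and the shaded stretch holds 95 genes, 82 of which are lower on average over the viruses.

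The size of the fall followed the brightness of the probe. Genes of the stretch with a mean log2 level above 10 had a median of -0.27 (36 genes), those from 8 to 10 of -0.25 (25 genes) and those below 8 of -0.02 (34 genes). Of the 61 genes above 8, 59 were lower. The exceptions were GLO1, a glyoxalase that detoxifies methylglyoxal, and BICRAL, a subunit of a SWI/SNF complex, both at 0.01. GLO1 had 14.41 and 14.54 in NT and 14.56 and 14.56 in p21 lines with ECV, and 14.59 and 14.55 against 14.51 and 14.50 with KLF4 virus, near the top of the range of 6.69 to 14.8. BICRAL had 9.59 and 9.56 against 9.46 and 9.59 with ECV, and 9.44 and 9.50 against 9.52 and 9.56 with KLF4 virus, so its groups overlapped with ECV. The other 11 genes that were not lower had levels below 8. They were BTBD9, KIF6, TREML1, GUCA1A, PRPH2, GNMT, SLC22A7, DLK2, LINC01512, SLC29A1 and PLA2G7, with differences from 0.01 to 0.14.

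The falls were deepest next to CDKN1A. The 13 genes from PPIL1 to ZFAND3 were all lower, with a median of -0.42, and 6 of them were called. The 72 from BTBD9 to CDC5L had a median of -0.18 with 4 called, and the last 10 had a median of -0.13 with 1 called. On the other side of CDKN1A, SRSF3, a splicing factor, was at 0.18 (SE 0.0832, adjusted p = 0.539, limma). It had 9.58 and 9.50 in NT against 9.81 and 9.72 in p21 lines with ECV. With KLF4 virus it had 9.13 and 9.48 against 9.38 and 9.52, so the groups overlapped there. The other kept SRSF3 probe was at 0.006. Past the end of the stretch, GLYATL3, LINCMD1 and IL17A were dim with differences of -0.01, -0.09 and -0.04.

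Of the called genes of the stretch, CCDC167 fell most, 1.65-fold. With ECV it had 12.50 and 12.62 in NT-2 and NT-3 against 11.89 and 12.06 in p21-2 and p21-3, and with KLF4 virus 12.67 and 12.23 against 11.66 and 11.50. The groups did not overlap, and the difference was -0.73 (SE 0.0993, adjusted p = 0.00701, limma). CMTR1, a methyltransferase that modifies the mRNA cap, had 10.55 and 10.46 against 9.93 and 9.99 with ECV, and 11.005 and 10.60 against 10.03 and 10.14 with KLF4 virus. The difference was -0.63 in log2 units (SE 0.0809, adjusted p = 0.0068), and its other kept probe was at -0.43. ZFAND3, a zinc finger protein, had 10.37 and 10.15 against 9.76 and 9.82, and 11.09 and 10.78 against 10.07 and 10.29. It fell by 0.61 (SE 0.0833, adjusted p = 0.00701). RNF8, a ubiquitin ligase that acts at DNA breaks, had 10.56 and 10.70 against 10.21 and 10.01, and 10.56 and 10.74 against 10.11 and 10.18, a fall of 0.51 (SE 0.0692, adjusted p = 0.00701). All 4 genes lie within the first 13 after CDKN1A, as do C6orf89 (-0.51, adjusted p = 0.0155) and PPIL1, a spliceosomal prolyl isomerase (-0.42, adjusted p = 0.0453), which had 11.89 and 11.60 against 11.31 and 11.30 with ECV and 11.58 and 11.48 against 11.24 and 10.997 with KLF4 virus. TBC1D22B, the largest fall of the stretch that did not pass, was at -0.45 (adjusted p = 0.112).

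Farther along the stretch, NFKBIE, an inhibitor that holds NF-kB in the cytoplasm, had the smallest p. Its levels were 9.25 and 9.23 in NT-2 and NT-3 against 8.82 and 8.80 in p21-2 and p21-3 with ECV, and 9.37 and 9.27 against 8.70 and 8.77 with KLF4 virus. The replicates lay close together in both viruses, and the difference was -0.51 (SE 0.0589, adjusted p = 0.00372, limma). MMUT, the mitochondrial methylmalonyl-CoA mutase, is the gene before the last of the stretch and had 10.86 and 10.82 against 10.33 and 10.34, and 10.99 and 10.86 against 10.53 and 10.45. It fell by 0.47 (SE 0.0607, adjusted p = 0.0068). A second kept MMUT probe lay at background (mean 7.21). MEA1 (-0.53, adjusted p = 0.0124), the Golgi protein YIPF3 (-0.43, adjusted p = 0.0153) and PPP2R5D, a regulatory subunit of the phosphatase PP2A (-0.36, adjusted p = 0.0304), were also called. The other kept PPP2R5D probes were at -0.22 and -0.04. The mean over PPP2R5D probes was at -0.21 and did not pass (adjusted p = 0.319, limma). With line means MEA1 (adjusted p = 0.067), YIPF3 (0.097), PPP2R5D (0.164), ZFAND3 (0.0669) and PPIL1 (0.176) did not pass. Among members that did not pass with all arrays, cyclin D3 (CCND3), a partner of CDK4 and CDK6, was at -0.20 (adjusted p = 0.387), the chaperone HSP90AB1 at -0.39 (adjusted p = 0.101) and CENPQ, a centromere protein, at -0.28 (adjusted p = 0.293). TREM1, a receptor of myeloid cells, was at 0.11 with ECV and -0.55 with KLF4 virus.

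Each p21 array carried the shift on its own. Set against the NT mean of the same virus, the median over the stretch was -0.18 in p21-2 and -0.19 in p21-3 with ECV, and -0.15 and -0.16 with KLF4 virus. In the 4 miR-150 arrays it was -0.01 to 0.01, and in the NT arrays -0.02 to 0.02. The p21 arrays did not overlap with the other 8. The stretch was placed from the p21 minus NT differences of these arrays, so the gap between p21 and NT arrays is a description. Each NT array was set against a mean that includes it, so the NT values of a virus mirror each other and measure no independent spread. Genes outside the stretch had medians of -0.01 to 0.02 in all 12 arrays. Where a gene of the stretch had more than 1 kept probe, 17 of 18 such further probes were lower, and so were all 8 with a mean level above 8 (median -0.27). The lowest windows of 20 genes anywhere were on this stretch, at -0.32 (CDKN1A to DAAM2), -0.24 (TJAP1 to CDC5L) and -0.17 (MED20 to RRP36). For miR-150 lines minus NT lines the same windows were at -0.02, 0.00 and -0.02.

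**Figure D3:**
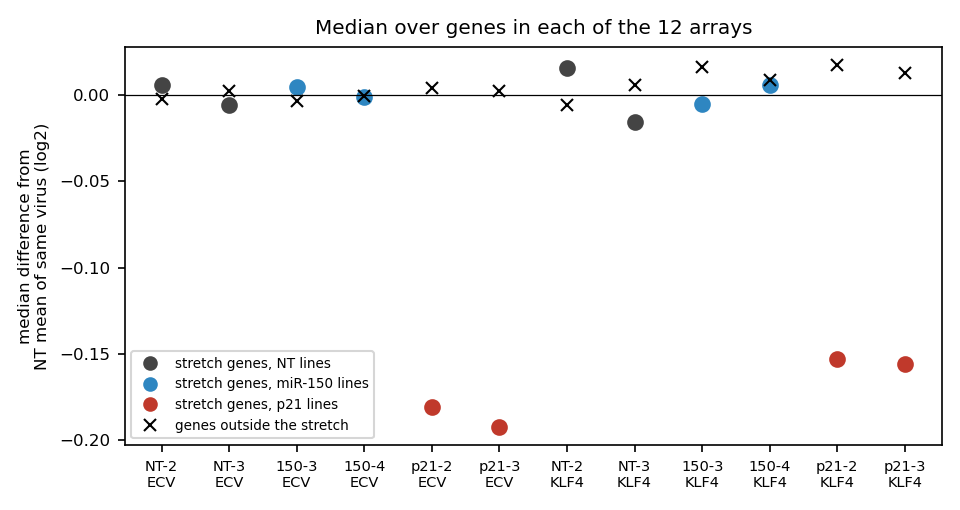
Median difference from the NT mean of the same virus (log2, y axis) in each of the 12 arrays (x axis), over the stretch genes (dots) and over all genes outside the stretch (crosses). The 4 p21 arrays sit between -0.19 and -0.15 for the stretch, and the other 8 between -0.02 and 0.02. The stretch was placed from the p21 minus NT differences of these arrays.

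Outside the stretch 12 of 12042 genes (0.0997%) were called, all lower in p21 lines, with 0 higher. They lay on 8 chromosomes, with RNA18SN5 on none that the gene table names. These calls leaned on the adjustment over all genes: with chromosome 6 left out of the fit, AAK1 was the 1 gene called. With line means AAK1 (adjusted p = 0.0347), GRB2 and SAXO1 (both 0.0438) were called, and the other 9 were not (0.097 to 0.216). They also leaned on single probes, since 5 had 1 kept probe and several others had further probes that did not move.

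AAK1, a kinase that regulates clathrin adaptors in endocytosis, was lower in both lines with both viruses. With ECV it had 8.31 in NT-2 and 8.08 in NT-3, against 7.47 in p21-2 and 7.45 in p21-3. With KLF4 virus it had 8.31 and 8.11, against 7.53 and 7.59. The p21 arrays lay near background, and the miR-150 arrays, at 7.99 to 8.20, lay with the NT arrays. The fall was 1.62-fold, or -0.69 on the log2 scale (SE 0.0701, 95% interval -0.84 to -0.54, adjusted p = 0.00143, limma), and with the p21 arrays near background the fold may be too small. Within a single virus it was called with ECV (-0.73, adjusted p = 0.036) and with KLF4 virus (-0.65, adjusted p = 0.049). It stayed called in 27 of 29 other settings, the exceptions being the fits without the line p21-2 or the line p21-3. Its 3 other probes lay at background, with means of 7.01 to 7.05.

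ARID4B, a subunit of the SIN3 histone deacetylase complex, had the largest difference, at -0.75 (SE 0.123, adjusted p = 0.0258, limma). It had 8.97 and 8.37 in NT-2 and NT-3 against 7.94 and 8.08 in p21-2 and p21-3 with ECV, and 9.04 and 8.52 against 8.003 and 7.90 with KLF4 virus. NT-2 was high with both viruses, and the miR-150 arrays lay at 8.35 to 8.59. The other kept probes of ARID4B moved in opposite directions, -0.26 and 0.18, and the mean over probes was at -0.28 and did not pass (adjusted p = 0.295). GRB2, the adaptor that links receptor tyrosine kinases to RAS, had 9.55 and 9.58 against 9.11 and 9.06 with ECV, and 10.01 and 9.65 against 9.25 and 9.25 with KLF4 virus, a difference of -0.53 (SE 0.0901, adjusted p = 0.0304). Its other kept probe was at -0.16. The array of miR-150 line 4 with ECV, at 9.14, lay close to the p21 arrays.

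IKZF1, the lymphoid and myeloid transcription factor Ikaros, had 10.18 and 10.18 against 9.62 and 9.45 with ECV, and 10.13 and 10.05 against 9.91 and 9.81 with KLF4 virus. The difference was -0.44 (SE 0.0695, adjusted p = 0.0195), -0.65 with ECV and -0.23 with KLF4 virus; the dependence on the virus did not pass (adjusted p = 0.787). SAXO1, a microtubule-binding protein, had 8.99 and 9.17 against 8.44 and 8.61, and 8.94 and 8.85 against 8.57 and 8.50, a fall of 0.46 (SE 0.0675, adjusted p = 0.0129). HPS5, a subunit of a complex that builds lysosome-related organelles, was the gene whose second kept probe moved as far, at -0.36 beside -0.39. Its levels were 8.90 and 8.95 against 8.51 and 8.43 with ECV, and 9.11 and 8.85 against 8.64 and 8.69 with KLF4 virus (adjusted p = 0.0382). SLX4IP, a partner of the SLX4 nuclease scaffold, was dim, with 7.80 and 7.78 against 7.50 and 7.48, and 7.87 and 7.78 against 7.51 and 7.49, a difference of -0.31 (adjusted p = 0.0486).

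For the other 5 calls, further probes of the gene differed from the probe used or the gene has copies. NUCKS1, a DNA-binding nuclear protein, was at -0.39 (adjusted p = 0.0257) in a probe with 13.54 and 13.45 against 13.11 and 13.02 with ECV, and 0.17 and 0.06 in its other kept probes. GNL3L, a nucleolar GTPase, was at -0.42 (adjusted p = 0.0343) and at 0.12 in its other probe. GRN, which encodes progranulin, a secreted and lysosomal protein, was at -0.35 (adjusted p = 0.0486) and at -0.05 in its other probe. RNA18SN5 is a copy of the 18S ribosomal RNA gene, had 12.17 and 12.25 against 11.72 and 11.46 with ECV, and cannot be told from the other copies (-0.49, adjusted p = 0.0304). PDIA3P1 is a pseudogene of PDIA3, whose mRNA its probe may also bind (-0.38, adjusted p = 0.0382). The other kept PDIA3P1 probe was at -0.14, and the mean over probes was at -0.26 and did not pass (adjusted p = 0.191, limma).

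**Figure D4:**
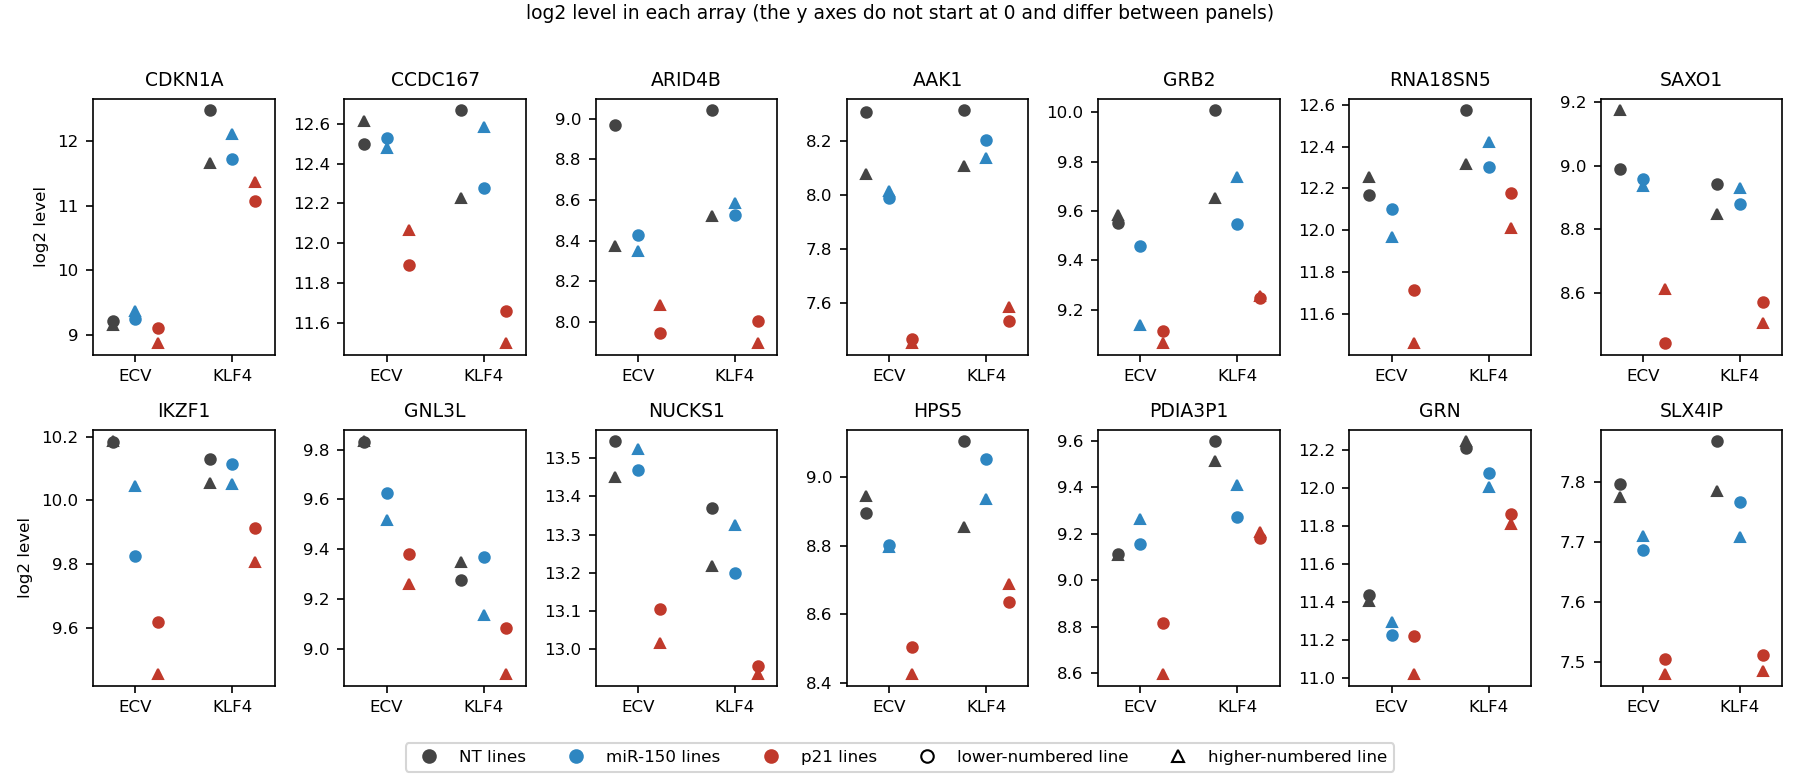
log2 level (y axes, which differ between panels and do not start at 0) in each of the 12 arrays by virus (x axes), for CDKN1A, CCDC167 and the 12 genes called outside the stretch. Dots are the lower-numbered and triangles the higher-numbered line of a target; in every panel the red p21 points lie below the grey NT points of the same virus.

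Higher levels in p21 lines did not pass, though at an unadjusted p under 0.05 more genes were higher than lower. CCNY, a membrane-bound cyclin, came closest and was named after its values were seen: it had 9.66 and 9.63 against 10.02 and 9.92 with ECV, and 9.35 and 9.11 against 9.58 and 9.83 with KLF4 virus, a difference of 0.40 (SE 0.0761, adjusted p = 0.063, limma). Its other kept probe was at 0.04. OGT, the enzyme that adds O-GlcNAc to proteins, was at 0.35 (adjusted p = 0.0994, limma), and its other kept probe at 0.18. CD47, a surface protein that restrains phagocytosis, was at 0.32 (adjusted p = 0.112), and its other kept probe at 0.04. Every p21 array lay above every NT array within each virus in 5.03% of all genes.

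Within a single virus, and with 2 arrays against 2, few genes passed. With ECV, AAK1 was the 1 gene called (0.00824% of genes), with 327 lower (2.69%) and 328 higher (2.7%) at an unadjusted p under 0.05. With KLF4 virus 5 genes were called (0.0412%): AAK1, and CCDC167 (-0.87), ZFAND3 (-0.76), CMTR1 (-0.72) and NFKBIE (-0.58) of the stretch (4.21% of its genes), each at an adjusted p of 0.049. The count with KLF4 virus was 1433 without NT-3 with KLF4 virus, 17 without NT-2 with KLF4 virus and 0 without any of the other arrays taken singly; the count with ECV was 28 without either NT array with KLF4 virus and 0 without any of the others. For the dependence of the p21 difference on the virus 0 genes were called (limma), with 753 genes (6.2%) at an unadjusted p under 0.05. That count was 590 without NT-3 with KLF4 virus and 2 without NT-2 with KLF4 virus. The smallest p-values belonged to TXNDC5, a protein disulfide isomerase, and BTK, a kinase of B and myeloid cells, both lower with ECV and higher with KLF4 virus, by 0.67 and 0.56 between the viruses. GPR65, an acid-sensing receptor, differed the other way, at 0.08 with ECV and -0.43 with KLF4 virus. All 3 had an adjusted p of 0.787. In the other kept TXNDC5 probe the p21 and NT arrays overlapped with ECV.

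Of the 457 tested genes of the gene lists outside the stretch 1 was called (0.219%, against 0.0997% of all genes outside it), so the count is no result about the lists. That gene was GRN, among lysosomal genes, and NFKBIE of the stretch was the 1 call among NF-kB genes. Of 19 tested p53 targets 9 were lower, with a median of 0.01, equal to the median of all genes at 2 decimals. Other CDK inhibitors did not pass. CDKN1B, which encodes p27, was at 0.22 (adjusted p = 0.404, limma), but at -0.004 in its other kept probe, which was about as bright. The phosphatase gene CDKN3 was at 0.18 (adjusted p = 0.513). Of 19 tested G1 cyclins, CDKs and RB family genes 3 were lower, with a median of 0.07. Without NT-2 with KLF4 virus the median was 0.03 with 7 lower, and with ECV alone it was 0.00 with 10 lower. RB1, the retinoblastoma protein, was at 0.26 (adjusted p = 0.283).

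Genes of DNA replication and mitosis leaned higher in p21 lines without a call. The 38 S phase genes had a median of 0.08 with 5 lower, and the 34 G2 and mitosis genes a median of 0.12 with 4 lower, where 46% of all genes were lower. RFC5, a subunit of the PCNA clamp loader, was at 0.28 (adjusted p = 0.267, limma). CDK1, the mitotic kinase, was at 0.24 (adjusted p = 0.398), but its other kept probe, with a mean of 9.63, was at 0.05. TPX2, a spindle protein, was at 0.24 (adjusted p = 0.293). TPX2 had 10.71 and 10.56 against 10.79 and 10.90 with ECV, and 10.54 and 10.72 against 10.90 and 10.89 with KLF4 virus, so the groups did not overlap in either virus. Without NT-2 with KLF4 virus the S phase median was 0.00 with 19 lower, and the G2 and mitosis median was 0.10 with 6 lower. With ECV alone they were 0.00 and 0.06, with 20 and 10 lower. The miR-150 lines leaned the same way against the NT lines that both share, with medians of 0.05 and 0.07, and p21 minus miR-150 lines had medians of 0.03 and 0.04.

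Monocyte and interferon genes leaned lower, and here the array NT-2 with KLF4 virus moved with the result. Of 25 monocyte and macrophage genes 24 were lower, with a median of -0.15, and of 28 interferon response genes 23 were lower, with a median of -0.16. In NT-2 with KLF4 virus these lists were higher than in NT-3 by medians of 0.52 and 0.73. Without that array the medians were -0.01 (14 of 25 lower) and -0.03 (17 of 28 lower), and with ECV alone -0.01 and 0.03. The miR-150 lines had medians of -0.08 and -0.12 against the same NT arrays. SPI1, which encodes the myeloid transcription factor PU.1, was at -0.43 by its brightest probe (adjusted p = 0.281, limma). That probe kept its difference with ECV, with 10.74 and 10.69 in NT against 10.18 and 10.31 in p21 lines. With KLF4 virus it had 11.46 and 10.78 against 10.72 and 10.71. By the same probe miR-150 lines 3 and 4 had 10.33 and 10.67 with ECV, so that line 3 lay close to p21-3. They had 10.96 and 10.98 with KLF4 virus. The other kept SPI1 probe was at -0.32, and its groups overlapped with ECV, at 10.61 and 10.12 against 10.13 and 10.36. IRF7, a transcription factor of the interferon response, had 7.99 and 7.92 against 7.84 and 7.88 with ECV, and 10.62 and 9.25 against 8.93 and 9.17 with KLF4 virus, where NT-2 stood apart. The NF-kB and inflammatory genes had a median of -0.10 over all arrays and 0.01 without NT-2 with KLF4 virus.

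Genes of MYC and ribosome biogenesis leaned lower where NT-2 with KLF4 virus was not used. Their median was -0.01 with 13 of 23 lower over all arrays, -0.10 with 20 of 23 lower without NT-2 with KLF4 virus, and -0.09 with 18 of 23 lower with ECV alone, where 48.4% of all genes were lower. The smallest p-values in this list belonged to NOP56, a component of small nucleolar ribonucleoproteins (-0.18, adjusted p = 0.445), the polyamine enzyme gene ODC1 (-0.12, adjusted p = 0.715) and POLR1B, a subunit of RNA polymerase I (-0.10, adjusted p = 0.69). The other kept NOP56 probes were at -0.02 and -0.20. Ribosomal protein genes had a median of 0.02 over 24 genes. Of 14 tested granule and progenitor genes 4 were lower, with a median of 0.02, or -0.01 without NT-2 with KLF4 virus. MS4A3 had the smallest p there, at 0.29 (adjusted p = 0.293, limma), with 0.23 and 0.22 in its other kept probes. The neutrophil elastase gene ELANE was at 0.41 (adjusted p = 0.343). The groups of both genes overlapped with ECV. The transcription factor gene CEBPE was at -0.44 (adjusted p = 0.387). With ECV CEBPE had 9.10 and 9.09 in NT and 9.21 and 9.20 in miR-150 lines, against 8.76 and 8.74 in p21 lines. With KLF4 virus CEBPE had 10.24 in NT-2 and 9.32 in NT-3, against 9.11 and 9.39 in p21 lines, so the groups overlapped there.

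**Figure D5:**
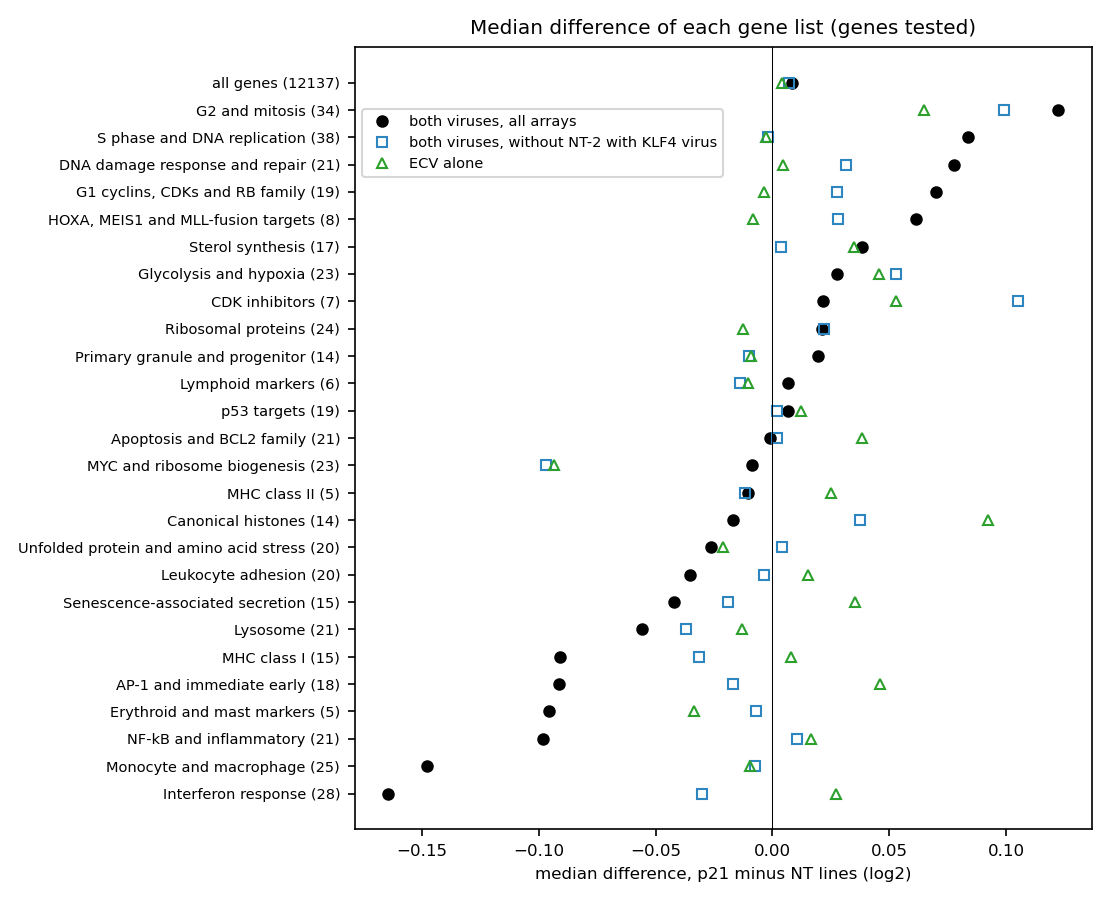
Median p21 minus NT difference (log2, x axis) of each gene list with at least 5 tested genes (y axis, number tested in brackets) over all arrays, without the array NT-2 with KLF4 virus and with ECV alone. The interferon median moves from -0.16 to -0.03 without that array, and that of MYC and ribosome biogenesis from -0.01 to -0.10.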

How the data were processed

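Total RNA was made into biotinylated cRNA and hybridised to Illumina bead arrays, per the labels. The authors deposited log2 expression values for 47323 probes, from 6.69 to 14.8; no source used here gives their normalization or background treatment. The 24 columns of a raw intensity table match no sample label and were not used. A probe was kept above 7.26 on at least 2 arrays, the 95th percentile of values below the commonest level, mirrored. This kept 22521 probes, of which 16261 had 1 gene symbol, and the brightest kept probe stood for each of 12137 genes. Gene names are those of the platform annotation, brought up to date with a RefSeq gene table that also gave the gene order.

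A mean for each of 6 groups was fitted over the 12 arrays in limma (3.58.1, lmFit with eBayes; statmod 1.5.0, R 4.3.3), with the CRISPR line as a random block, since the labels name the same line with each virus. The estimated correlation within a line was 0.0322, and after group means were removed, both arrays of a line correlated across genes at 0.0959 (NT), -0.0493 (miR-150) and 0.0679 (p21). Of the 4 contrasts, the mean over both viruses was the chief one. The number of arrays limits the precision.

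The members, the 27 gene lists and the rules were chosen with earlier results of these data known. The rule for the end of the stretch was changed to a least-squares step, with values already seen, because its first form missed an end planted in simulated data; the fits were also tested on simulated data. Genes were named by rule: CDKN1A, called genes outside the stretch with no overlap (up to 15 each way), the 5 largest calls within a virus, the 3 smallest p each way for the virus dependence, the 10 largest falls, neighbours and unlowered members of the stretch, and 3 members of each list. The members of the stretch with other roles, and genes just outside the threshold, were added after their values were seen. Alternatives were the block, the arrays in the fit, variance model, array weights, filter, probe choice, normalization, background correction, control set, threshold, chromosome 6 left out and each array or line left out. Other stretch ends, and lists without NT-2 with KLF4 virus or with ECV alone, were chosen after seeing the data. Python 3.11.15 and matplotlib 3.10.9 served for plotting.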

Additional observations from a re-analysis of the deposited data

Results flagged for a closer look

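In 9 named genes both p21 arrays lay on one side of both NT arrays with ECV and on the other side with KLF4 virus. Of all 12137 genes, 661 (5.45%) did so. The difference between the viruses was tested in limma and did not pass for any of the 9, with adjusted p = 0.787 except for GLO1 (0.838). The p21 difference with KLF4 virus minus that with ECV was 0.67 for TXNDC5, 0.57 for CCDC93 and 0.56 for BTK, which were lower in p21 lines with ECV and higher with KLF4 virus. It was -0.65 for TREM1, -0.65 for H2BC5, -0.62 for TATDN1, -0.57 for H2BC12, -0.33 for HLA-DRA and -0.15 for GLO1, which were higher with ECV and lower with KLF4 virus. TREM1 and GLO1 belong to the stretch of chromosome 6. H2BC5 and H2BC12 have near-identical copies that a probe may not tell apart. Their other kept probes showed the same opposite pattern. In the other kept probes of TXNDC5, CCDC93, TATDN1 and HLA-DRA the p21 and NT arrays overlapped with ECV, so those probes did not show it.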

How the results depend on the processing

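Without the replicate block by line, 24 genes were called for the mean of both viruses, against 23, with 12 in the stretch and 12 outside; no other call count changed. With line means, the strictest form of the replicate block, 9 were called, 6 in the stretch (CCDC167, C6orf89, CMTR1, NFKBIE, MMUT and RNF8) and 3 outside (AAK1, GRB2 and SAXO1). From the p21 and NT arrays alone the counts were 1 in all, 0 in the stretch and 1 outside, with 0 within either virus. An additive fit of target and virus called 11, 2 of them outside. The mean of kept probes called 13 (5 outside) and 1 with KLF4 virus, and normexp 12 (4 outside) and 0 with KLF4 virus. Array weights gave 14 genes with ECV and 0 with KLF4 virus. Without a filter on dim probes there were 2 with ECV and 1 with KLF4 virus, and with a strict filter, cyclic loess or chromosome 6 left out 0 with KLF4 virus; the last left 1 gene outside the stretch. At an adjusted p under 0.01 the counts were 7 in all, 6 in the stretch, 1 outside and 0 within either virus, and under 0.1 there were 5 with ECV and 10 with KLF4 virus. Ending the stretch at ZFAND3 (13 genes) gave 6 calls in it and a median of -0.42; ending it at IL17A (98 genes) gave -0.19. Over the 16 fits without an array or a line, calls ranged from 0 to 964 (0 to 932 outside and 0 to 32 in the stretch), from 0 to 28 with ECV, from 0 to 1518 with KLF4 virus and from 0 to 590 for the virus dependence. The stretch median ranged from -0.21 to -0.17 and CDKN1A from -0.74 to -0.30. Over these and the other settings, 378 of 656 tests of the 23 called genes stayed past the threshold and 0 changed sign. Each fit without a p21 or NT array leaves a group with a lone array, assumed to vary like the others. Dim probes limit what can be said of the 34 stretch genes below a level of 8. The causes of these changes were not tested.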
